A study of Mus musculus with 6 samples.

Results

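Rab proteins are the largest branch of the Ras superfamily of small GTPases and mark the membranes between which vesicles move. The family was read here in whole mouse aorta, with and without a deletion of Ogt in smooth muscle. Its members were taken from the annotation alone, as every protein-coding gene named Rab plus digits with an optional final letter, or letter and digit, which left out Rab-binding proteins such as Rab11fip and Rab3gap genes. This gave 59 genes of the 55487 in the table. Of these, 50 had a summed count of at least 60 over the 6 libraries and were tested among 15977 genes that met the same minimum. The 9 members below it were Rab26 with a summed count of 58, Rab38 with 48, Rab37 with 45, Rab19 and Rab42 with 36 each, Rab44 with 21, Rab39 with 16, Rab25 with 6 and Rab3c with 2. The members just above it were Rab33a with 77, Rab15 with 84 and Rab3b with 96.

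A Rab protein is on when it holds GTP and off when it holds GDP. Guanine nucleotide exchange factors (GEFs) load it with GTP, GTPase-activating proteins (GAPs) end the signal, and GDP dissociation inhibitors carry the prenylated protein back through the cytosol. In the active state a Rab recruits effectors, among them motor adaptors, tethers and coat proteins. Different Rabs mark the endoplasmic reticulum and Golgi, early endosomes, recycling endosomes, late endosomes and lysosomes, secretory granules and the primary cilium. In vascular smooth muscle these routes carry matrix proteins outward and take receptors and integrins in and back to the surface.

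The 2 groups, of 3 libraries each, were a knockout and a control. The knockout libraries came from aortas of mice lacking Ogt in smooth muscle cells, and the control libraries from aortas of Ogt floxed mice, whose genotype is given as LoxP. Ogt, on the X chromosome, encodes the enzyme that attaches O-linked N-acetylglucosamine to nuclear and cytosolic proteins. The sample titles of both groups carry the name SM22, another name of transgelin, a smooth muscle gene whose promoter is widely used to drive Cre recombinase. The sources used here do not give the Cre line, the age and sex of the mice or the number of aortas behind each library, so the p-values below measure the spread between these libraries. The aorta was measured whole, with its endothelium, fibroblasts, macrophages and fat, and in such bulk RNA fewer cells of a type and less RNA per cell cannot be told apart.

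Total counts were 11845644, 17223643 and 18218385 in knockout libraries 1 to 3, against 13738958, 3038782 and 12929900 in control libraries 1 to 3. Control 2 stood apart: protein-coding genes held 77.2% of its counts, against 93.2% to 94.2% in the other libraries, and mitochondrial ribosomal RNA held 10.2%, against 0.491% to 0.823%. A single count was worth 0.372 CPM (counts relative to the size of the library, after scaling by the TMM factors of edgeR) in control 2 and 0.0543 to 0.0848 CPM in the others, so low genes were measured most coarsely there. Ogt itself had 93.1, 73.2 and 70.7 CPM in knockout aortas, against 176.7, 183.6 and 149.5 CPM in control aortas, a log2 fold change of -1.10 ± 0.15 (SE; edgeR quasi-likelihood adjusted p = 0.0222). The groups did not overlap, and the edgeR call was kept without control 2 (adjusted p = 0.0244) or control 3 (0.0311) and lost without control 1 (0.106), knockout 1 (0.0762), knockout 2 (0.130) or knockout 3 (0.0717), at log2 fold changes of -1.24 to -1.03. All 10 smooth muscle markers were detected, and their summed level was 27258 to 32605 CPM in knockout libraries and 33600 to 39890 CPM in control libraries. Tagln, the only 1 of them called by edgeR, had 2337, 2359 and 2859 CPM in knockout and 6042, 4258 and 6326 CPM in control. Its gap between the groups was wider than that of the sums, so the separation of the sums depended on Tagln. The log2 fold change was negative in 8 of the 10 and positive in 2, with a median of -0.18. It was -0.05 in Acta2, the highest of the list, and 0.61 in Des, 1 of the 2 positive.

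Of the 50 Rab genes tested with edgeR 2 had an adjusted p under 0.05, and both were lower in knockout aortas. They were Rab17, a Rab of transcytosis and recycling in polarised epithelia, and Rab28, a Rab tied to cilia and photoreceptors. That is 4% of the members tested, near the 3.35% of all tested genes that passed. Over all genes 1.51% were called lower and 1.83% higher. Between the knockout and control libraries 18 members had CPM values that did not overlap (36%), 11 of them higher and 7 lower in knockout, beside 31.8% of all genes (16.9% higher and 15% lower). An unadjusted p under 0.05 was reached by 15 members (30%), against 22.9% of all genes, of which 10 were higher and 5 lower. A log2 fold change of at least 0.5 in either direction was seen in 12 members (24%) and in 27.3% of all genes. In 25 of the 50 the log2 fold change was smaller than 0.25 in size. The median over the members was 0.05, with 31 positive and 19 negative values, and the median over all tested genes was -0.01. No member was called higher by edgeR or by limma-voom, which called the same 2 members lower and 4.66% of all genes in either direction. DESeq2 called 2 members higher and 4 lower, beside 11.1% of the 13761 genes to which it gave an adjusted p. Some members of low count, among them Rab15, Rab33a and Rab9b, had none. Limma-voom with library weights called 3 higher and 4 lower, beside 11.2% of all genes.

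**Figure D1:**
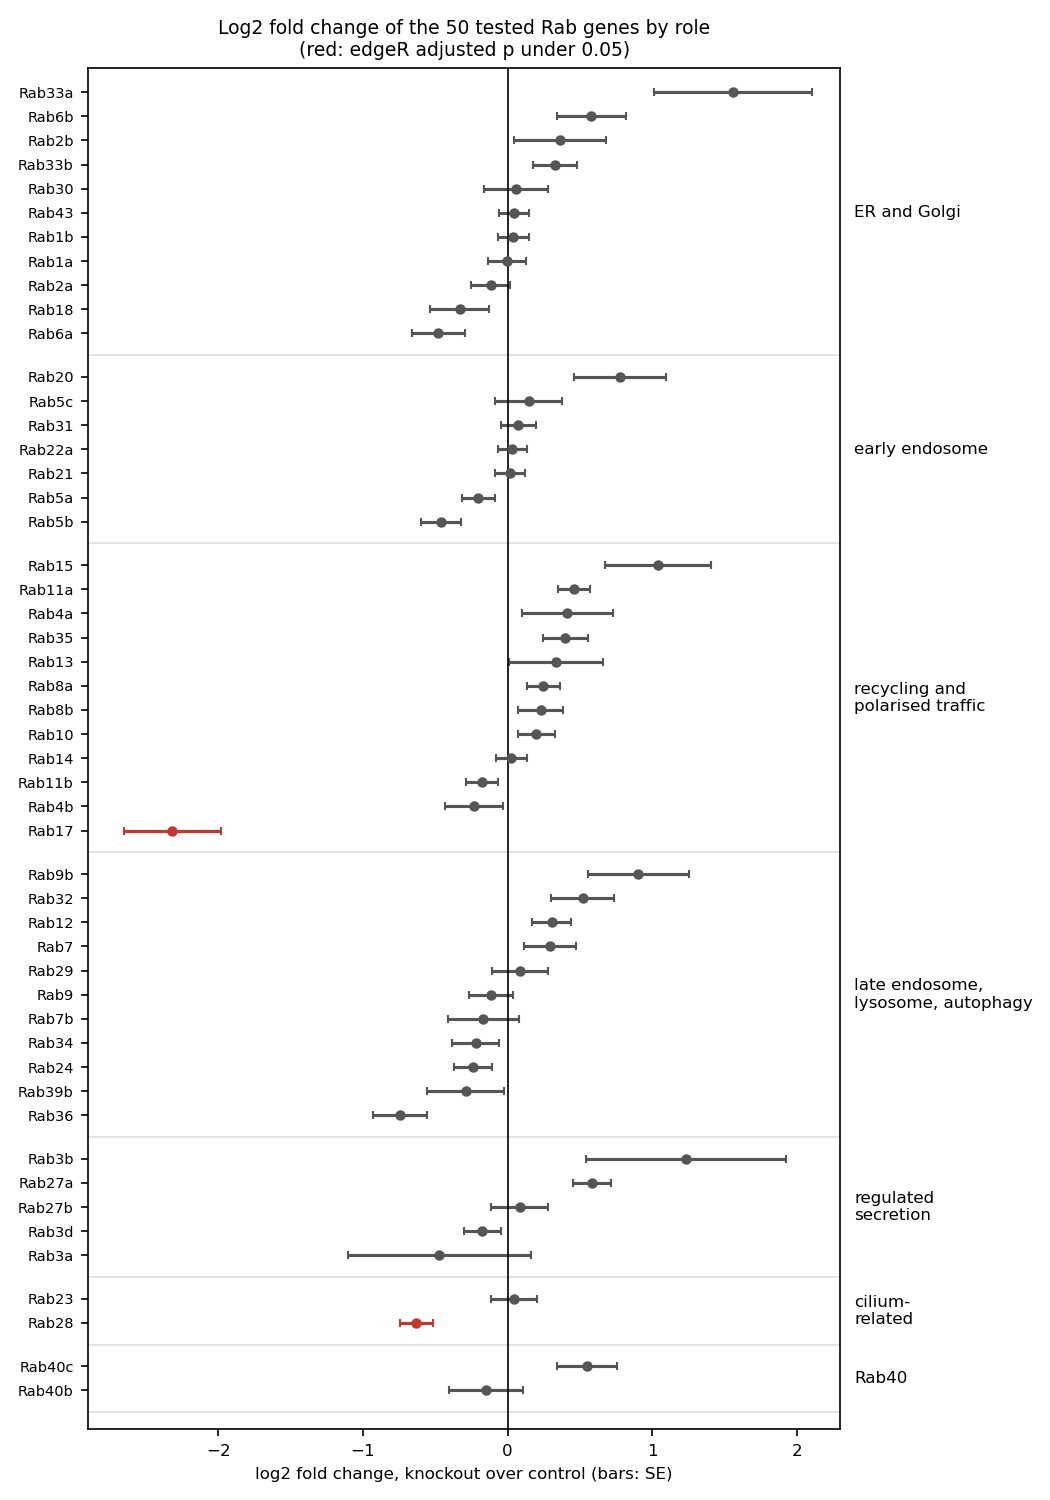
Log2 fold change of knockout over control for each of the 50 tested Rab genes (horizontal axis, bars show the standard error), grouped from top to bottom by the step of membrane traffic they serve. Red marks the 2 genes with an edgeR adjusted p under 0.05, Rab17 at -2.32 and Rab28 at -0.63; the other members lie on both sides of 0.

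Rab17 (ENSMUSG00000026304, chr1:90958133-90969661 on the minus strand, GRCm38) had 1.61, 1.41 and 1.20 CPM in knockout libraries 1 to 3, against 8.70, 8.18 and 4.42 CPM in control libraries 1 to 3. All knockout values lay below all control values, and control 3 was the lowest of its group. The counts behind them were 19, 24 and 22 in knockout and 127, 22 and 61 in control. Knockout aortas averaged 1.40 ± 0.208 CPM and control aortas 7.10 ± 2.33 CPM (SD, n = 3 each). In the edgeR fit Rab17 fell to 20.1% of control, a log2 fold change of -2.32 ± 0.34 (SE, adjusted p = 0.0256). The edgeR call was kept without control 2 (adjusted p = 0.0284) and without control 3 (0.0238), and was lost without control 1 (0.109), knockout 1 (0.123), knockout 2 (0.130) or knockout 3 (0.0762). The log2 fold change stayed between -2.60 and -2.11 in these 6 fits.

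Rab17 is known above all from epithelial cells, so epithelial markers are given beside it. Of 12 listed, 4 were detected well enough to test and 2 of these were called higher in knockout, the junction protein gene Tjp3 and the keratin gene Krt18. Over all 12 listed, the summed level was 56.4, 40.8 and 38.1 CPM in knockout libraries, against 25.5, 18.6 and 20.4 CPM in control libraries. Without Krt18, the highest of the list, the sums were 21.2, 12.1 and 13.1 CPM in knockout and 7.87, 8.18 and 7.03 CPM in control. Both sums ran in the opposite direction to Rab17. Not every marker did: Krt7, also tested, had a log2 fold change of 0.07. Some markers too low to test, among them Krt19 and Cldn4, had lower mean CPM in knockout. Epcam and Esrp1, defining genes of epithelium, had 0 counts in every library. Rab25, a Rab of epithelial recycling endosomes, had 6 counts in all. The part of epithelial cells in the Rab17 difference was not tested.

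Rab28 (ENSMUSG00000029128, chr5:41624976-41708157 on the minus strand, GRCm38) had 22.1, 24.7 and 22.6 CPM in knockout libraries, against 34.7, 35.7 and 37.1 CPM in control libraries. The groups were far apart relative to their spread, with means of 23.1 ± 1.36 CPM in knockout and 35.8 ± 1.20 CPM in control (SD, n = 3 each). Rab28 fell to 64.6% of control, a log2 fold change of -0.63 ± 0.12 (SE; edgeR adjusted p = 0.0399). With 5 libraries the edgeR call was kept without control 2 (adjusted p = 0.0335) and was lost without control 1 (0.118), control 3 (0.0746), knockout 1 (0.183), knockout 2 (0.145) or knockout 3 (0.101), while the log2 fold change ranged from -0.68 to -0.61. With no filter on low counts the adjusted p was 0.0797. Rab23, the other cilium-related member and a negative regulator of Hedgehog signalling, had a log2 fold change of 0.04.

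The promoter windows of the 2 genes that fell are printed here, since they are the members on which the comparison turns. Each runs from 250 bases before to 50 bases after a RefSeq transcription start (GRCm38.p6), 5′ to 3′ on the gene's strand, with every CG dinucleotide in capitals. The Rab17 window is chr1:90967618-90967917 and its start lies inside the gene as the count table places it; the Rab28 window is chr5:41708130-41708429. 
Rab17: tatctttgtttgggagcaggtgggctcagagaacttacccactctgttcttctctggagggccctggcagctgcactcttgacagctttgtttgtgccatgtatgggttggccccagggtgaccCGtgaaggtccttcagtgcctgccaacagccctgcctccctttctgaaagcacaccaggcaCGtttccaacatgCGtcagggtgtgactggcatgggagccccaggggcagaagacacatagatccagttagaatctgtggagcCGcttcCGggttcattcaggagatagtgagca
Rab28: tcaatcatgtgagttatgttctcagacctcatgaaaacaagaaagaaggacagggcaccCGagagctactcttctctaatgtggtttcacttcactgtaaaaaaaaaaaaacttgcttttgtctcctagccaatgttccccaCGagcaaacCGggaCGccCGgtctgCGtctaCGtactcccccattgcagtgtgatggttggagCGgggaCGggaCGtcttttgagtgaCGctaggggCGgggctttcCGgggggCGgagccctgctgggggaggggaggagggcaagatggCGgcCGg
The Rab17 window held 5 CG dinucleotides and the Rab28 window 16, at nearly the same GC content of 55.7% and 55.3%. Over 60 such windows of 48 Rab genes the median was 19.5, against 7 over all 32851 windows in the table. The Rab17 window was thus among the CG-poor ones of its family, and 43.6% of all windows held no more. It was the only window of Rab17, so its count may not hold for a start at the outer end. The 4 windows of Rab15 held 3, 4 and 8 CG inside the gene and 38 near its outer end. The Sp1-type motif GGGCGG, searched on both strands, was found 2 times in the Rab28 window and 0 times in the Rab17 window; 68.3% of Rab windows and 35.7% of all windows held at least 1. The E-box CACGTG, which reads the same on both strands, was in neither window; it was in 10% of Rab windows and 7.15% of all.

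The plot of the 12 Rab genes with the smallest unadjusted p shows their values in every library. The 10 that follow Rab17 and Rab28 did not pass the adjusted threshold in edgeR, and their values are given for what they are, by the step of traffic each member serves.

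**Figure D2:**
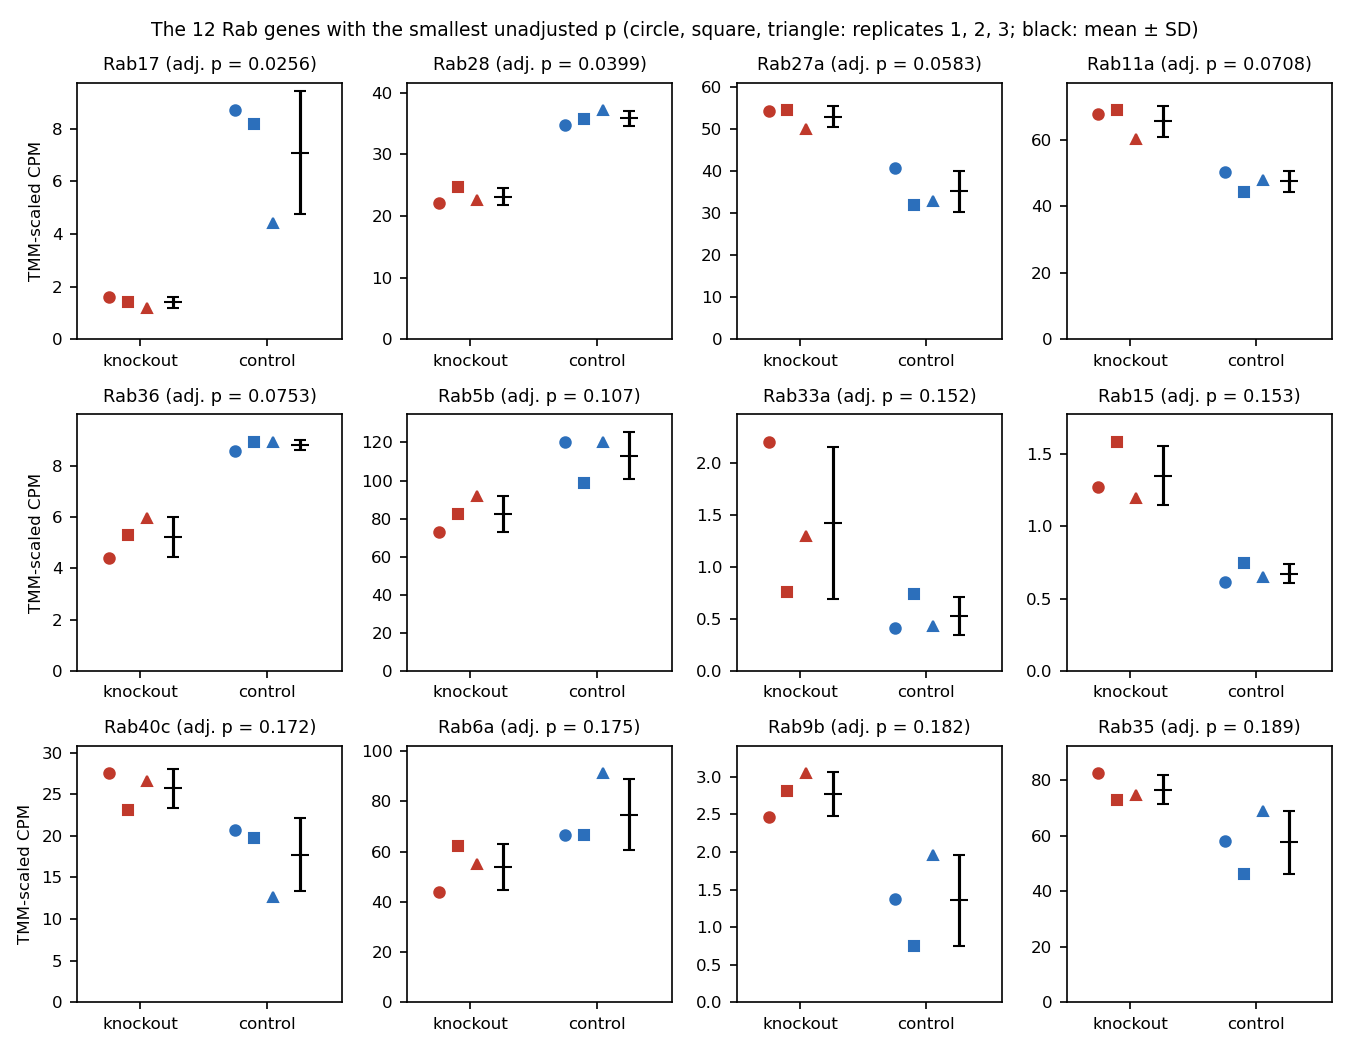
TMM-scaled CPM (vertical axis) of the 12 Rab genes with the smallest unadjusted p in the 3 knockout (red, left) and 3 control (blue, right) libraries; symbols mark replicates 1, 2 and 3 and black bars the mean ± SD. Rab17 and Rab28 pass an adjusted p of 0.05; in all 12 panels the groups do not overlap, by a narrow margin in Rab33a (0.762 CPM in knockout 2 and 0.743 CPM in control 2).

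In the route between endoplasmic reticulum and Golgi, Rab6a, which acts in traffic at the Golgi and back to the endoplasmic reticulum, had 44.1, 62.2 and 55.1 CPM in knockout libraries, against 66.6, 66.5 and 91.1 CPM in control libraries (log2 fold change -0.48 ± 0.18 SE, edgeR adjusted p = 0.175). Rab33a, a Rab of neurons and lymphoid cells, was near the detection limit at 2.21, 0.762 and 1.304 CPM in knockout, against 0.411, 0.743 and 0.435 CPM in control (1.56 ± 0.55, edgeR adjusted p = 0.152). Knockout 1 was its highest library, and the gap between the groups was less than the worth of 1 count. Rab2a, which acts at the boundary of the endoplasmic reticulum and Golgi, had 146, 141 and 165 CPM in knockout and 186, 147 and 156 CPM in control, and the groups overlapped (-0.12 ± 0.13, edgeR adjusted p = 0.644). Rab1a and Rab1b, needed for transport from the endoplasmic reticulum to the Golgi, had log2 fold changes of 0.00 and 0.04. Of the 11 tested members of this step none was called by edgeR, DESeq2 or either limma-voom fit, 3 had an unadjusted p under 0.05 in edgeR, and the median log2 fold change was 0.04.

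On early endosomes, Rab5b, one of 3 closely related Rab5 proteins that drive endosome fusion, had 73.0, 82.2 and 91.8 CPM in knockout libraries, against 120.2, 98.8 and 120.1 CPM in control libraries (log2 fold change -0.46 ± 0.14 SE, edgeR adjusted p = 0.107). The lowest control value, in control 2, lay just above the highest knockout value. Without control 2 Rab5b passed, at an edgeR adjusted p of 0.0483. Rab5c, the highest member of this step per length, had 142, 102 and 111 CPM in knockout and 85.1, 90.3 and 144 CPM in control, with one high library in each group (0.15 ± 0.23, edgeR adjusted p = 0.743). Its log2 fold change ranged from -0.01 to 0.43 when libraries were left out in turn. Of 7 tested members of this step edgeR and limma-voom called 0, DESeq2 and limma-voom with library weights 1 lower, and 2 had an unadjusted p under 0.05.

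Among the Rabs of recycling and polarised traffic, Rab11a, a marker of recycling endosomes, had 67.6, 68.7 and 60.1 CPM in knockout libraries, against 50.3, 44.2 and 47.8 CPM in control libraries (log2 fold change 0.46 ± 0.11 SE, edgeR adjusted p = 0.0708). Its knockout level in the edgeR fit was 137% of control and no library crossed over. Rab35, which returns cargo from endosomes to the plasma membrane, had 82.5, 72.8 and 74.6 CPM in knockout and 58.0, 46.1 and 68.8 CPM in control (0.40 ± 0.16, edgeR adjusted p = 0.189). Rab15, a Rab of neuronal endosomes, had 1.27, 1.58 and 1.20 CPM in knockout and 0.616, 0.743 and 0.652 CPM in control (1.04 ± 0.37, edgeR adjusted p = 0.153). All of Rab15 lies opposite to the gene Fntb, and no source used here gives the strand setting of the counting, so their reads may not be separated. Rab10, which brings GLUT4 vesicles to the surface of fat cells, had 161, 161 and 174 CPM in knockout and 165, 131 and 135 CPM in control (0.20 ± 0.13, edgeR adjusted p = 0.394). The antisense gene Rab10os overlaps it and had a log2 fold change of -0.77 (edgeR adjusted p = 0.0684). Over the 12 tested members of this group 9 log2 fold changes were positive and 3 negative, and the median was 0.24. Rab17 was the 1 member of this group that edgeR and limma-voom called, while DESeq2 and limma-voom with library weights each called Rab17 lower and Rab11a higher; 4 had an unadjusted p under 0.05 in edgeR. Summed over the group the level was 689, 668 and 670 CPM in knockout libraries, against 640, 583 and 617 CPM in control libraries.

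In the late endosomal and lysosomal group, Rab36, known from the positioning of late endosomes and lysosomes, had 4.41, 5.28 and 5.98 CPM in knockout libraries, against 8.56, 8.92 and 8.91 CPM in control libraries (log2 fold change -0.74 ± 0.19 SE, edgeR adjusted p = 0.0753). The control libraries were nearly equal to each other, and the knockout level in the edgeR fit was 59.7% of control. Rab9b, related to the late endosome Rab9, had 2.46, 2.81 and 3.04 CPM in knockout and 1.37, 0.743 and 1.96 CPM in control (0.90 ± 0.35, edgeR adjusted p = 0.182). Rab7, the chief Rab of late endosomes and lysosomes, had 190, 236 and 185 CPM in knockout and 206, 139 and 152 CPM in control, with overlap (0.29 ± 0.18, edgeR adjusted p = 0.375). A processed pseudogene of Rab7 had 1994 counts over the 6 libraries, so some reads of these near-identical copies may be misplaced. Of 11 tested members edgeR and limma-voom called 0, DESeq2 and limma-voom with library weights 1 lower, Rab36, and 3 had an unadjusted p under 0.05. The group median was -0.11.

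For regulated secretion, Rab27a, which docks lysosome-related organelles and secretory vesicles at the plasma membrane, had 54.5, 54.5 and 50.1 CPM in knockout libraries, against 40.8, 32.0 and 32.9 CPM in control libraries (log2 fold change 0.58 ± 0.13 SE, edgeR adjusted p = 0.0583). The lowest knockout library was above the highest control library. Rab3b, a Rab of secretory vesicles, passed in edgeR without control 2 and in limma-voom with library weights: it had 1.19, 1.58 and 2.06 CPM in knockout and 0.342, 2.23 and 0.435 CPM in control, the 2.23 CPM of control 2 being 6 counts. With all 6 libraries its log2 fold change was 1.24 ± 0.69 (edgeR adjusted p = 0.333), and it is named here after its values were seen. Of the 5 tested members edgeR and limma-voom called 0, DESeq2 1 higher and limma-voom with library weights 2 higher, with 1 unadjusted p under 0.05. In the small Rab40 subfamily, whose proteins carry a SOCS box and join ubiquitin ligases, Rab40c had 27.5, 23.0 and 26.6 CPM in knockout and 20.7, 19.7 and 12.7 CPM in control (0.55 ± 0.21, edgeR adjusted p = 0.172). Rab40b, the other tested member, had a log2 fold change of -0.15.

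Other markers moved between the groups, and their part in the Rab values was not tested. Brown adipocyte markers were lower, with 4 of 9 tested called (Ucp1, Pank1, Cox8b and Cox7a1), and their summed level was 180 to 234 CPM in knockout libraries, against 318 to 464 CPM in control libraries. Neuronal and glial markers summed to 140 to 152 CPM in knockout and 73.5 to 97.9 CPM in control, with 1 of 8 called higher, Uchl1, the highest of the list. Without Uchl1 the sums were 38.3, 53.7 and 44.2 CPM in knockout libraries and 31.6, 37.9 and 40.7 CPM in control libraries, and the groups overlapped. Of 10 smooth muscle markers 1 was called lower, Tagln, the gene of SM22. Skeletal muscle markers had 1 called higher, Ckm, and 1 lower, Casq1, of 6, and Krt18 was also the only tested one of 8 mesothelium markers. Endothelial markers summed to 738 to 1690 CPM in knockout and 852 to 1041 CPM in control, macrophage markers to 430 to 530 CPM in knockout and 206 to 638 CPM in control, white adipocyte markers to 1168 to 1485 CPM in knockout and 1203 to 1757 CPM in control, and fibroblast markers to 4521 to 4705 CPM in knockout and 4590 to 6731 CPM in control, so that in each the groups overlapped.

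Levels were compared between genes on the deposited FPKM scale, which divides by length. Rab2a was highest, at 67.9, 65.5 and 78.2 FPKM in knockout libraries and 92.9, 60.9 and 78.0 FPKM in control libraries, and it was above the next member in 6 of 6 libraries. Rab10 followed with means of 47.0 FPKM in knockout and 41.4 FPKM in control. Then came Rab1b with 39.2 FPKM in knockout and 38.5 FPKM in control. Rab10 was above Rab1b in 5 of 6 libraries, but their means differed by less than the spread, taken as the larger SD over the 6 libraries. Rab5c, Rab7, Rab1a, Rab5b, Rab12, Rab21 and Rab35 came next, with means over all 6 libraries of 29.6, 26.1, 25.5, 22.4, 21.2, 20.1 and 19.4 FPKM; none of the first 6 of these differed from the one after it beyond its spread. The 10 highest members took 59.8% to 62.4% of the family's FPKM in each library. Rab28 stood at place 29 and Rab17 at place 41 in this order. The whole family summed to 2568, 2566 and 2663 CPM in knockout libraries, against 2654, 2332 and 2585 CPM in control libraries, and these ranges overlapped.

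**Figure D3:**
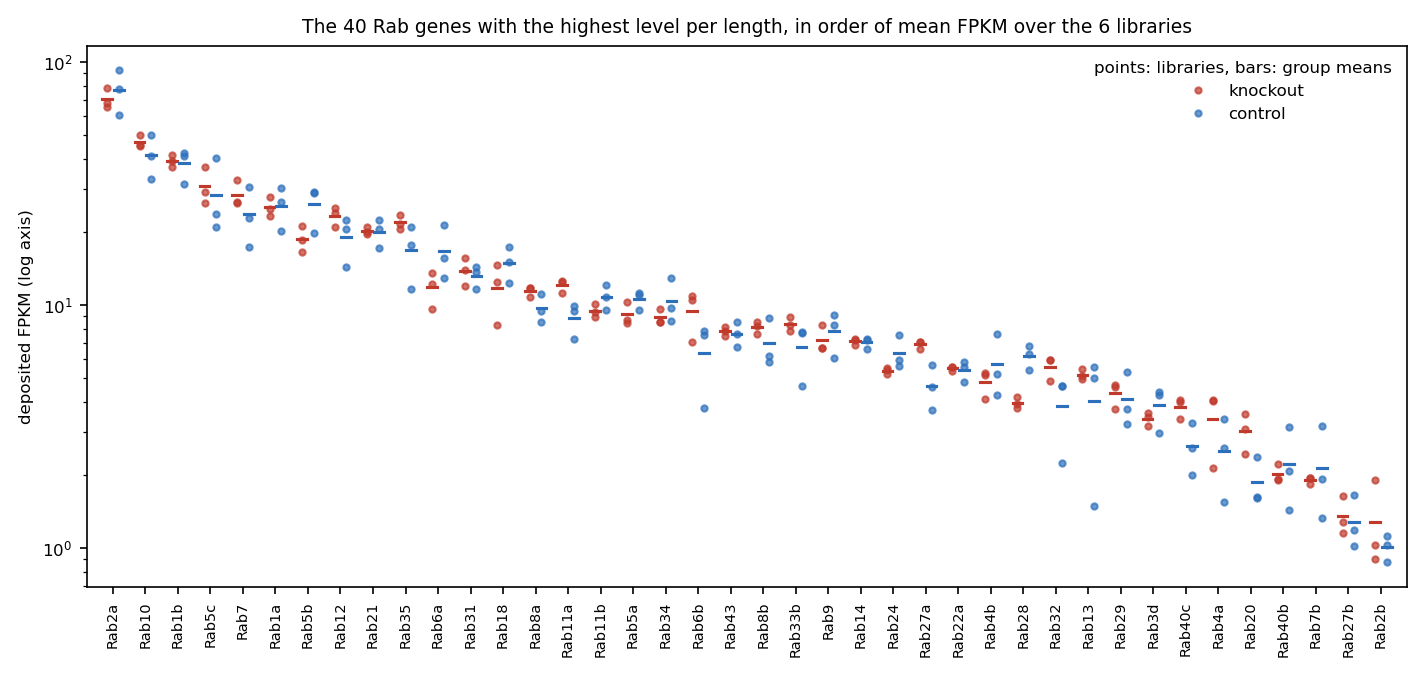
Deposited FPKM (log axis) of the 40 Rab genes with the highest mean over the 6 libraries, in falling order; each point is a library, knockout in red on the left and control in blue on the right of each position, and bars are group means. Levels fall from 73.9 FPKM for Rab2a to about 1 FPKM at the right, and for most members the points of both groups overlap.

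Many Rabs come as pairs of related proteins, and the balance within a pair was read as the share of 1 gene in the summed FPKM of both, a measure that does not depend on the scaling between libraries. For 15 of 17 pairs listed both genes were tested. With 3 libraries against 3 the smallest two-sided exact permutation p is 0.1, which 5 pairs reached, and over 15 pairs the adjusted value of each was 0.3, so no pair passed. Rab11a made up 55.1%, 58.5% and 54.4% of Rab11a plus Rab11b in knockout libraries, against 45.0%, 43.2% and 46.7% in control libraries (56.0 ± 2.16% in knockout, 45.0 ± 1.75% in control; SD, n = 3 each). On the FPKM scale Rab11a was therefore the larger of the pair in every knockout library and the smaller in every control library. The difference stayed between 9.81 and 11.9 percentage points when any 1 library was left out. In CPM, not divided by length, Rab11b was above Rab11a in every library of both groups. Rab11b has a processed pseudogene with 2792 counts, beside 7164 of Rab11b itself, which limits how exactly its share is known. Which of the pair was the larger in knockout is therefore not certain.

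Rab6a held 47.1%, 65.7% and 53.8% of Rab6a plus the brain-enriched Rab6b in knockout, against 66.6%, 77.4% and 74.0% in control, with knockout 2 close to control 1. Rab5b held 30.9%, 41.1% and 41.8% of Rab5b plus Rab5c in knockout, against 55.1%, 48.7% and 42.0% in control, and knockout 3 and control 3 were nearly equal. Rab27a held 86.0%, 84.6% and 80.1% of Rab27a plus Rab27b in knockout, against 77.4%, 78.3% and 79.5% in control. Rab9 held 91.6%, 90.5% and 91.5% of Rab9 plus Rab9b in knockout, against 96.1%, 97.3% and 94.1% in control. In the other 10 pairs the shares of the groups overlapped. In 5 of these 10 the sign of the difference turned when 1 library was left out, which cannot happen where the groups do not overlap.

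**Figure D4:**
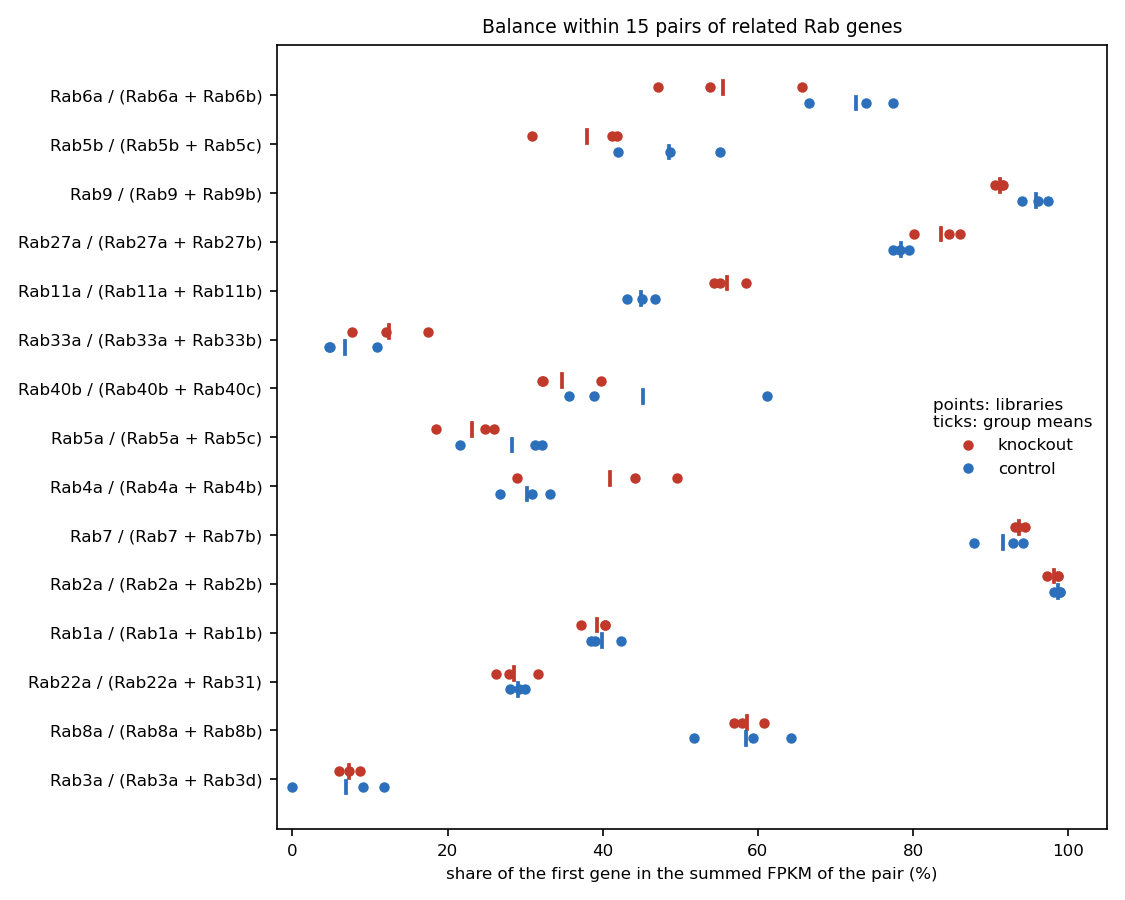
Share of 1 gene in the summed FPKM of a pair of related Rab genes (horizontal axis, percent) for 15 pairs; points are libraries, knockout in red above and control in blue below, and ticks are group means. In the 5 pairs at the top the groups do not overlap, the Rab11 pair lying at 54.4% to 58.5% in knockout and 43.2% to 46.7% in control.

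Of 135 genes listed as regulators or effectors of Rabs 130 were tested, 1 was called higher and 3 lower, or 3.08% against 3.35% of all genes, and the median log2 fold change was 0.02. The gene called higher was Mlph, which encodes melanophilin, the adaptor that links Rab27a on melanosomes to the motor myosin Va. Mlph had 19.8, 14.7 and 12.9 CPM in knockout libraries, against 4.52, 6.32 and 3.19 CPM in control libraries, 3.58 times the control level, with every knockout value above every control value (log2 fold change 1.84 ± 0.28 SE, edgeR adjusted p = 0.0297). Left out in turn, control 2 (edgeR adjusted p = 0.0223) and control 3 (0.0493) kept the call, and control 1 (0.110), knockout 1 (0.139), knockout 2 (0.130) and knockout 3 (0.0669) lost it.

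Rab11fip2, an effector that ties Rab11 to myosin Vb, fell to 59.2% of control: it had 14.5, 12.7 and 14.4 CPM in knockout libraries, against 21.8, 26.0 and 22.8 CPM in control libraries (log2 fold change -0.76 ± 0.14 SE, edgeR adjusted p = 0.0400). Tbc1d16, a GAP described for Rab4, fell to 61.0% of control, with 20.7, 19.9 and 23.7 CPM in knockout and 34.6, 34.9 and 35.9 CPM in control (-0.71 ± 0.12, edgeR adjusted p = 0.0352). Trappc9, a subunit of the TRAPPII complex, an exchange factor at the Golgi, fell to 64.1% of control, with 29.9, 28.0 and 31.9 CPM in knockout and 42.1, 52.8 and 46.1 CPM in control (-0.64 ± 0.13, edgeR adjusted p = 0.0464). In all 3 the groups were separate, and each edgeR call was kept with control 2 left out and lost with any other library left out.

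Counts by class are small and stand beside these shares of all genes: 3.35% called by edgeR, 4.66% by limma-voom and 11.2% with library weights. DESeq2 called 11.1%, and 22.9% had an unadjusted edgeR p under 0.05. The enzymes and carriers that prenylate Rabs and recycle them had 0 of 8 called by edgeR or limma-voom. DESeq2 and limma-voom with library weights each called 2 of them lower, and 3 had an unadjusted edgeR p under 0.05. The smallest were those of Ggps1, which makes the geranylgeranyl donor, at 26.6 ± 3.67 CPM in knockout and 38.9 ± 2.35 CPM in control, of Rabac1, a Rab acceptor protein, at 101 ± 1.40 CPM in knockout and 136 ± 13.7 CPM in control, and of Rabggtb, the catalytic subunit of Rab geranylgeranyl transferase, at 20.4 ± 0.911 CPM in knockout and 26.8 ± 3.72 CPM in control (SD, n = 3 each). Their edgeR adjusted p-values were 0.0768, 0.0901 and 0.172. Among 39 exchange factor genes edgeR and limma-voom called 1, Trappc9, lower, DESeq2 called 3 higher and 3 lower, and limma-voom with library weights 4 higher and 3 lower; Hps1, part of the exchange factor for Rab32 and Rab38, had a log2 fold change of -0.64 and Als2cl, related to the Rab5 exchange factor alsin, of 0.92 (edgeR adjusted p = 0.0633 and 0.0710). Among 37 GAP genes edgeR called 1, Tbc1d16, lower, limma-voom called 3 higher and 1 lower, and DESeq2 and limma-voom with library weights each called 5 higher and 1 lower; Sgsm2 and Usp6nl, which act on Rab32 and on Rab5, had log2 fold changes of 0.56 and 0.66 (edgeR adjusted p = 0.0501 and 0.0583). Among 47 tested effectors edgeR called Mlph higher and Rab11fip2 lower, limma-voom called 2 higher and 1 lower, and DESeq2 and limma-voom with library weights each called 5 higher and 3 lower; Rabep2, a Rab5 effector of the rabaptin family, had a log2 fold change of 0.85 (edgeR adjusted p = 0.0570).

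Mlph, the partner called higher, and Rab17, the member with the lowest log2 fold change, are next to each other. Mlph lies at chr1:90915085-90951142 on the plus strand (GRCm38), and its end is 6991 bases from the 3′ end of Rab17 on the minus strand, so the pair converges. Per library, Mlph had 19.8, 14.7 and 12.9 CPM beside 1.61, 1.41 and 1.20 CPM of Rab17 in knockout, and 4.52, 6.32 and 3.19 CPM beside 8.70, 8.18 and 4.42 CPM of Rab17 in control. Mlph was the higher of the pair on this scale, not divided by length, in every knockout library and the lower in every control library. The genes around them were looked up after these values were seen. Of 14 tested genes within 500 kb of Rab17, itself included, only Mlph and Rab17 were called. Both were known to be called beforehand, and 3.35% of all tested genes were called. On the far side of Rab17, Lrrfip1 had a log2 fold change of 0.07 ± 0.18 (SE; edgeR adjusted p = 0.853), and beyond Mlph the collagen gene Col6a3 had 0.36 ± 0.19 (edgeR adjusted p = 0.297). The lincRNA gene Gm9991 had 1.56 ± 0.40 (edgeR adjusted p = 0.0788). Farther out on the Lrrfip1 side, Ube2f had 0.53 ± 0.13 (edgeR adjusted p = 0.0706) and Scly -0.61 ± 0.16 (0.0788). Klhl30 and Per2, also on that side, had 0.55 ± 0.20 and 0.51 ± 0.18 (edgeR adjusted p = 0.169 and 0.153). Around Rab28 there were 3 tested genes within 500 kb, Rab28 itself included, and only Rab28 was called.

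**Figure D5:**
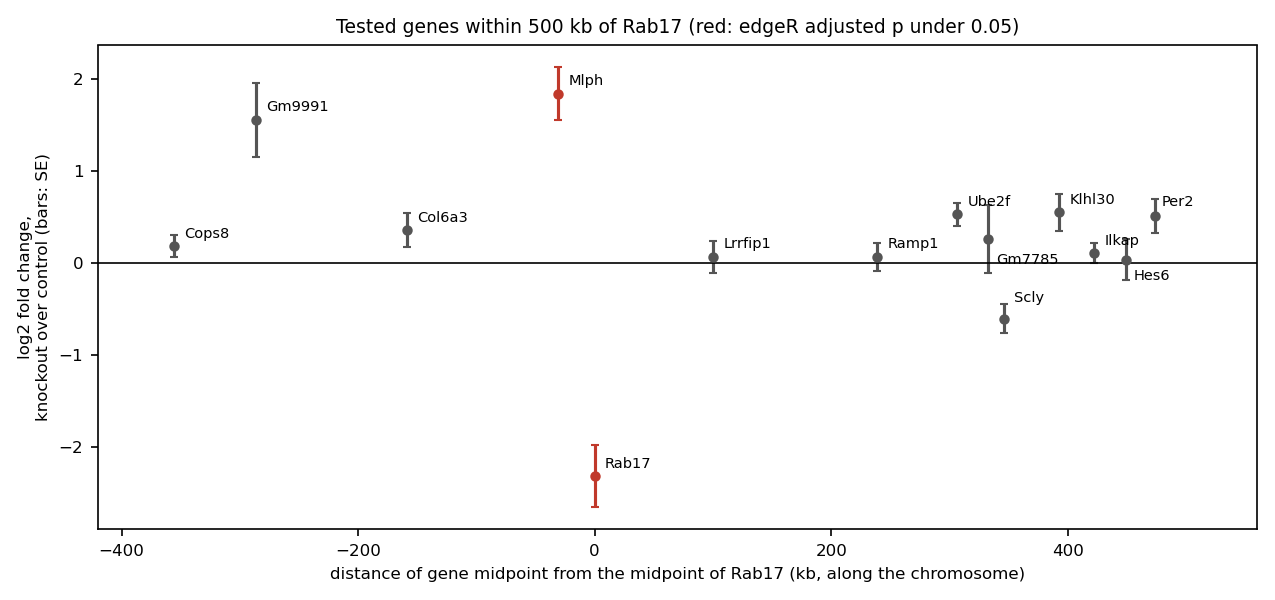
Log2 fold change of knockout over control (vertical axis, bars show the standard error) of the 14 tested genes within 500 kb of Rab17, itself included, by distance of their midpoints along the chromosome. Red marks an edgeR adjusted p under 0.05: Mlph at 1.84 and its neighbour Rab17 at -2.32, on opposite sides of 0.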

How the data were processed

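RNA was measured in 6 libraries of whole mouse aorta, 3 knockout and 3 control. The authors deposited 1 table with read counts per gene and FPKM values, beside gene type, name and position. The submitters' processing notes name CASAVA 1.8, HISAT2, SAMtools 1.3.1 and edgeR, and the build GRCm39; the 59 Rab genes sit at their GENCODE M21 (GRCm38) positions, and coordinates are given as GRCm38. No source used here gives the counting program, the annotation or the strand setting. Deposited FPKM equal counts per length and library total, and served for levels between genes and for pair shares.

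Genes with a summed count of at least 60 were kept. Knockout and control were compared with edgeR 4.0.16 (R 4.3.3; TMM scaling, robust quasi-likelihood test, no covariates), with Benjamini-Hochberg adjustment over 15977 genes and a threshold of 0.05. Standard errors are the log2 fold change divided by the root of the F statistic. Alternatives were DESeq2 1.42.0 and its size factors, limma 3.58.1 (voom, with and without library weights), 3 other gene filters, a replicate block, and each library left out. The edgeR fit was also run on simulated counts with 200 changed genes. It recovered 23% of 2-fold and 79% of 4-fold changes, and 10 of its 112 calls were false. Most 2-fold changes thus went uncalled there, so a gene not called here may still differ. Depth was 3038782 to 18218385 counts, which limits low genes.

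The Rab genes, role groups, partner and marker lists and pairs were chosen with earlier results of these data known. Named were called Rab genes, the 12 with the smallest p, the highest per length in each role, called partners and the 3 with the smallest p in each partner list, and Ogt; other genes named complete a group, a pair or an order, or were chosen after their values were seen. Sequences are from RefSeq promoter tables (GRCm38.p6).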

Additional observations from a re-analysis of the deposited data

How the results depend on the processing

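The number of Rab genes called was 2 with edgeR and 6 with DESeq2, 7 with limma-voom with library weights, 1 with no filter beyond a summed count of 1, 0 with a replicate block and 0 to 4 with 1 library left out. For the partner lists it was 4 with edgeR and 21 with DESeq2, 22 with limma-voom with library weights, 8 with limma-voom, 8 with protein-coding genes only, 0 with the block and 0 to 11 with 1 library left out. Over all genes it was 535 (3.35%) with edgeR, 1524 (11.1%) with DESeq2, 745 (4.66%) with limma-voom and 1787 (11.2%) with library weights. It was 25 with the replicate block and 7 to 910 with 1 library left out. The partner lists held 130 tested genes and the Rab family 50. Over all genes, leaving out control 2 gave the 910 calls and leaving out control 1 the 7. Knockout and control libraries of the same number correlated at 0.06, 0.10 and -0.05 in their deviations from the group means. Not every library correlated best with its own. Deviations from means of only 3 libraries cannot decide whether libraries pair, and no source used here says that they do. The submitters' own sample names share no number between the groups. The replicate block therefore rested only on the numbers in the titles. The cause of the shifts in the number of calls was not tested. Of 29 named genes 28 kept their sign under every alternative that gave a value. That was 14 alternatives for 26 genes and 13 for Rab15, Rab33a and Rab9b, to which DESeq2 gave no adjusted p. Rab5c turned, with a range of -0.0121 to 0.43 with 1 library left out. Most of the 29 were named for a small p in these same libraries, so kept signs were largely fixed by that choice. The median log2 fold change of the Rab genes stayed between 0.04 and 0.10. The 10 highest members per length were the same 10 with TMM-scaled counts per kilobase. The shallow control 2 limits what can be said of low Rab genes, including some above 1 CPM. Rab3b had 2.23 CPM there from 6 counts, and Rab13 had 4.83 CPM from 13 counts.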
